A study of Homo sapiens with 6 samples.

Results

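FNDC3B is a gene on the plus strand of the long arm of chromosome 3 from which the RNA of these cells yielded 18 different back-splice junctions. All junctions that the deposited circular RNA table assigns to FNDC3B were taken, 18 of 7746 listed junctions, with 300 reads over 6 libraries. FNDC3B had been picked with its number of junctions and reads known, so these and its ranks among genes are a description without a test. Circular RNA was sequenced in 3 libraries of PANC-1, an established line of human pancreatic duct carcinoma cells that served as the untreated parent, and in 3 libraries of PANC-1-GR. PANC-1-GR was selected from PANC-1 over 40 weeks in Gemcitabine, a cytidine analogue used against pancreatic cancer. The dose was raised from 0.1 to 200 µg/ml, and 10 µg/ml was afterwards added at intervals. PANC-1-GR is thus 1 selected line, and the labels do not say whether its 3 libraries came from separate cultures, so p-values measure the spread between libraries, which may be technical. The labels name the cell lines as the source, as does the paper, whereas the extraction text of the labels speaks of tumor tissue and plasma.

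A circular RNA forms by back-splicing, in which a downstream splice donor joins an upstream acceptor of the same transcript. A read across that junction identifies the circle, and the exons in between are usually taken to be its content. FNDC3B encodes FAD104, a fibronectin type III domain protein anchored in the membrane of the endoplasmic reticulum, first described in mouse adipocyte differentiation. Circles of this gene have been studied in several carcinomas under the name circFNDC3B, and more than 1 circle carries that name. Here each circle is therefore named by its circBase ID, the entry in a public circRNA catalogue, or by its exons. Exon numbers are those of the transcript the table names for FNDC3B, with 26 exons, in GENCODE release 29 (GRCh38). They were assigned by matching genomic spans and spliced lengths, since the positions in the table are in hg19.

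The sequences across 5 exonic junctions are shown because they are what tells the circles apart, and because they show which splice sites are shared. Lower case letters are the end of the last exon of the circle and capitals the start of its first exon, 5′ to 3′, with 25 bases of each exon, or 15 of each for the circle that holds the start codon exon.
hsa_circ_0001361, exons 2 to 3, chr3:171830242-171851336: ttcagtgcattcaagGAAGCCAGTTGAGGG
hsa_circ_0067985, exons 4 to 6, chr3:171944661-171969331: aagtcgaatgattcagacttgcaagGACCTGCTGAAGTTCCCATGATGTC
hsa_circ_0006156, exons 5 to 6, chr3:171965323-171969331: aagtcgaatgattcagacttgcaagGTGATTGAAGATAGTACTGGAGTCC
hsa_circ_0067990, exons 6 to 9, chr3:171969050-172016577: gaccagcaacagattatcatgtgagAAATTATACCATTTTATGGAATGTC
hsa_circ_0003692, exons 6 to 11, chr3:171969050-172028671: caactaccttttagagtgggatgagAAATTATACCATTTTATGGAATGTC
The lower case part of hsa_circ_0067985 and hsa_circ_0006156 is the same, the end of exon 6, and the capitals of hsa_circ_0067990 and hsa_circ_0003692 are the same, the start of exon 6. Exon 6, at chr3:171969050-171969331 and 282 bases long, is the exon on which most of the splicing described here turns, and it is given whole, with the 25 bases at either edge in capitals.
exon 6 of FNDC3B: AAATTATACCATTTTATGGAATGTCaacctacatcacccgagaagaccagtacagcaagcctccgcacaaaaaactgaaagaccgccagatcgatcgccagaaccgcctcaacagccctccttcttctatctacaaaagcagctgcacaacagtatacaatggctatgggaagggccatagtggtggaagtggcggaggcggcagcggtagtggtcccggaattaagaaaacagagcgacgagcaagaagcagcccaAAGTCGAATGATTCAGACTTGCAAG

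The 18 junctions used 10 start positions and 11 end positions. The start is the upstream edge of the circle and the end its downstream edge. 5 of the starts served more than 1 junction, and these carried 282 of the 300 reads, or 94.0%. 4 of the ends did so, with 234 reads, or 78.0%. At the starts of exons 2 and 5, however, a single circle held 67 of the 71 reads at each, hsa_circ_0001361 and hsa_circ_0006156. The other junction at each of these starts had 4 reads. Some start and end positions of FNDC3B were thus joined in more than 1 way. Among the 3348 host genes it was 6th by number of junctions and 16th by reads, and the median host gene had 1 junction.

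**Figure D1:**
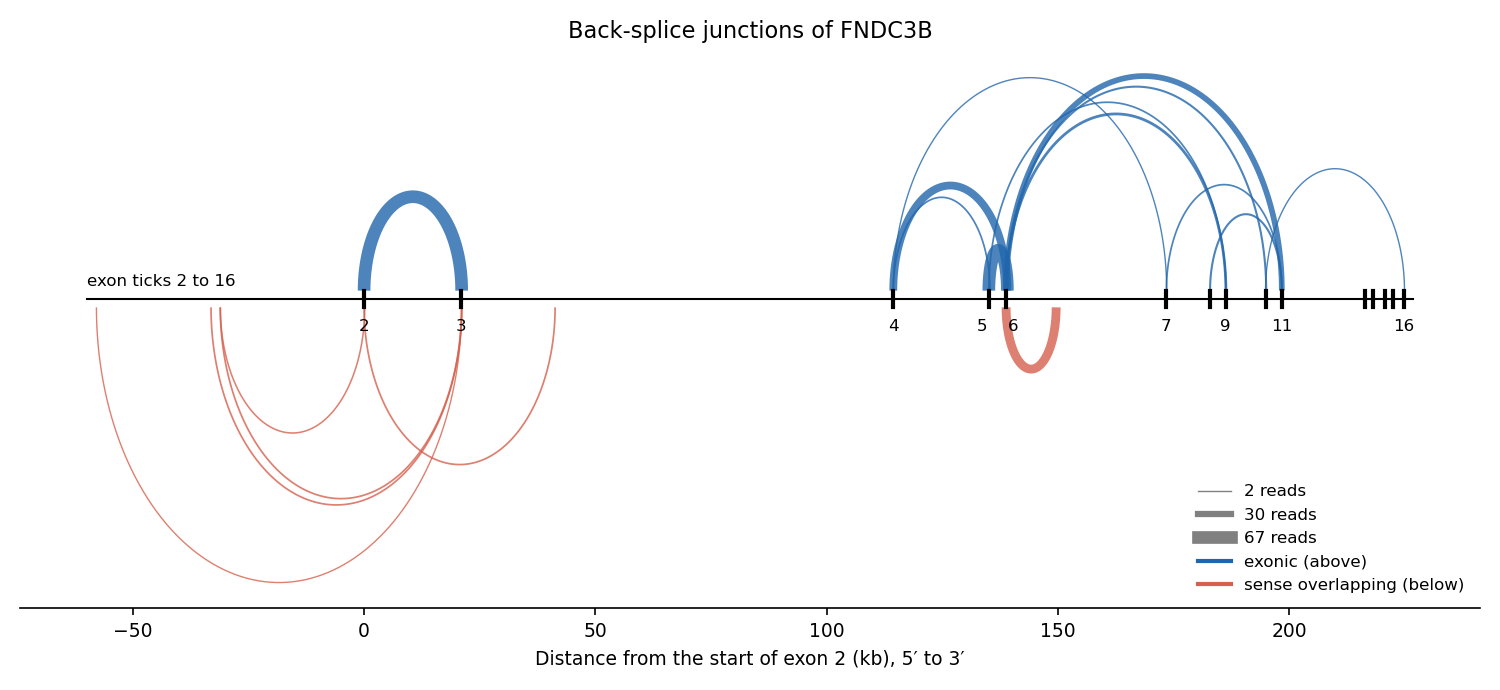
Back-splice junctions of FNDC3B by distance in kb from the start of exon 2, with exons 2 to 16 as ticks, exonic junctions above and the others below the line, and line width rising with reads over the 6 libraries. The arcs form 2 clusters, around exons 2 and 3 and from exon 4 on, and no arc crosses the long intron between them.

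Exon 6 was the centre of the downstream cluster. Its start was the most used start, with 4 junctions and 88 reads, or 29.3% of the gene's reads. Its end was the most used end, with 2 junctions and 106 reads, or 35.3%. These 6 junctions together held 194 reads, or 64.7%. Of the 12 exonic circles, 7 would contain exon 6, with 155 of 238 exonic reads, or 65.1%. By reads exon 5, of 244 bases, came next, in 5 exonic circles with 116 reads, or 48.7% of the exonic reads. Exons 7, 8 and 9 would lie in 6 exonic circles each, but with 53, 57 and 57 reads. Exon 4 served only as a start, of 3 junctions with 45 reads, or 15.0% of the gene's reads, and exon 5 started 2 junctions with 71 reads, or 23.7%. Exon 11 served only as an end, of 3 junctions with 37 reads, or 12.3%, and exon 9 ended 2 junctions with 14 reads.

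The upstream cluster lay around exons 2 and 3. Exon 2 is the first coding exon, with 28 untranslated bases. The start of exon 2 began 2 junctions with 71 reads, or 23.7% of the gene's reads. The end of exon 3 closed 4 junctions with 77 reads, or 25.7%. 3 of these 4 began inside intron 1, at 57875, 33098 and 31089 bp upstream of exon 2, and had only 2, 4 and 4 reads. A further junction began at the last of these points and joined it to the end of exon 2 with 3 reads. That intronic start was thus used with 2 different ends.

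None of the 18 junctions spanned intron 3 from exon to exon. 6 junctions ended before exon 4 and 12 started at or after exon 4. Intron 3 is 93324 bp long, and the longest span in the whole table is 99910 bp. A circle from exon 2 to exon 4 would span 114496 bp and one from exon 3 to exon 5 would span 114306 bp, beyond any listed span, whereas one from exon 3 to exon 4 would span 93477 bp and lie within it. An upper limit on span in the junction calling is not stated in the sources used here, so larger circles cannot be told from circles left out.

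The predicted spliced lengths of the 12 exonic circles ranged from 215 to 797 nt, with a median of 578 nt, against a median of 480 nt over all exonic junctions of the table. The shortest is hsa_circ_0001361, which would hold exons 2 and 3, and the longest is the circle of exons 5 to 9. Weighted by reads, the mean length was 468 nt in PANC-1 and 489 nt in PANC-1-GR. The PANC-1-GR mean takes in circles of 662, 797 and 791 nt with 0 reads in PANC-1. These entered the table only through PANC-1-GR, as did the circles of 692, 464, 405 and 321 nt, with 1 read each in PANC-1. The difference between the means was not tested. The circles of 603 nt (hsa_circ_0067985), 321 nt (hsa_circ_0067984, exons 4 to 5) and 405 nt (hsa_circ_0067997, exons 8 to 11) are multiples of 3 in length and have 0 stop codons in the frame of the mRNA. In coding exons such a length keeps the frame, so only a codon across the junction could have been a stop. Translation was not measured. The other 6 junctions have an edge inside an intron, and the table calls them sense overlapping. Their listed lengths are genomic spans, as for all 1161 junctions of the table that are not exonic, so they are not spliced lengths. The junctions only show the edges of a circle, and whether the inner exons are all kept was not measured.

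Reads of FNDC3B were spread over several circles. The largest share held by any junction was 22.3%, and 2 junctions tied at it with 67 reads each, hsa_circ_0001361 and hsa_circ_0006156. Among the 45 host genes with 150 to 600 reads the median share of the leading junction was 55.6%, and 4 of them had a lower share than FNDC3B. 6 junctions had at least 10 reads and each was found in all 6 libraries, and together they held 255 reads, or 85.0%. The other 12 had under 10 reads each. Nearest to that limit were hsa_circ_0067990 with 10 reads, and hsa_circ_0067991 (exons 6 to 10) and hsa_circ_0067997 with 6 reads each. The genes nearest in number of junctions within 0.5 to 2 times the reads of FNDC3B were MPP6, with 17 junctions, 6 starts, 9 ends and 31.4% of reads in the leading junction, ASAP1, with 16, 9, 12 and 47.3%, and PHC3, with 16, 9, 6 and 15.4%.

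The first question between the lines was whether more FNDC3B circles were found in the resistant cells. Summed over its junctions, FNDC3B had 31, 44 and 30 reads in the parent line and 75, 52 and 68 in the resistant line. Over all genes the total of junction reads was 11964, 11785 and 9429 in the parent line, and 13689, 9222 and 10889 in the resistant line. Per 10000 junction reads of the library, the FNDC3B level was 25.9, 37.3 and 31.8 in the parent line and 54.8, 56.4 and 62.4 in the resistant line. Every PANC-1-GR library was thus above every PANC-1 library, as was so for 4.85% of the 1093 tested host genes. The mean level was 31.7 ± 5.71 in the parent line and 57.9 ± 4.04 in the resistant line (SD, n = 3), a difference larger than the spread between libraries.

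In the quasi-likelihood test of edgeR over 1093 host genes, FNDC3B rose by 0.89 on the log2 scale (SE 0.20), or 1.85-fold, with a Benjamini-Hochberg adjusted p of 0.0129 and an unadjusted p of 1.18e-05. It had the smallest p of all host genes tested and was the only one with an adjusted p under 0.05, which is 0.0915% of them. The study used a fold of 1.5 in its Methods and a fold of 2 in its Results. FNDC3B passed the first and missed the second, and the fold of 1.5 with p at most 0.05 was passed by 5.58% of host genes and in the direction of PANC-1-GR by 2.84%. The exact permutation test of the 6 levels gave a two-sided p of 0.1, the smallest that 3 against 3 libraries allow. The sum also takes in 12 junctions that reached 2 reads in a library, the least the table lists, only in the resistant line. They had 9 reads in the parent line and 36 in the resistant line. 5 of them had 0 reads in the parent line and 13 in the resistant line. The ratio of summed reads over library totals was 1.63 for the other 6 junctions, against 1.82 for all 18. Over junctions with at least 5 reads the log2 fold change was 0.76. Whether the line difference was known when FNDC3B was picked is not recorded, so the p is not independent evidence. The adjusted p was 0.178 with DESeq2, 0.547 over the 9 junctions with a circBase ID and 0.256 over junctions with at least 5 reads. Leaving out 1 library gave 0.508 and 0.700 without PANC-1 replicates 1 and 3, and 0.142 and 0.177 without PANC-1-GR replicates 1 and 3, so the adjusted call rested on each of these 4 libraries. The log2 fold change stayed between 0.72 and 1.12 in 20 alternatives, and p before adjustment passed 0.05 in each. Every alternative kept some of the 12 junctions listed only through the resistant line, and a fit without all 12 was not made. Linear FNDC3B mRNA was not analysed here, so more transcription of the gene and more back-splicing of its RNA cannot be told apart.

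**Figure D2:**
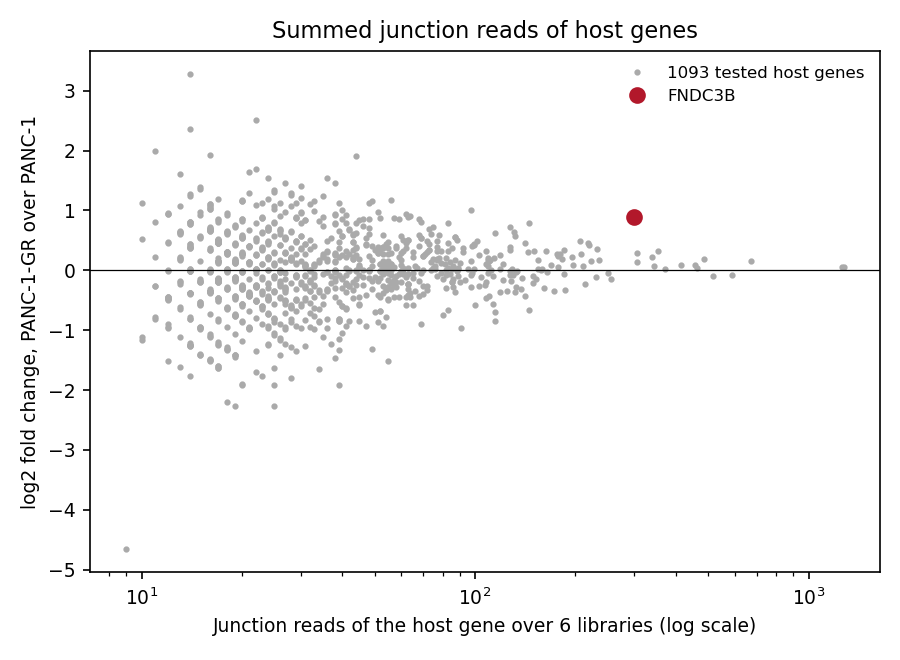
Fitted log2 fold change between the lines (PANC-1-GR over PANC-1) against junction reads over 6 libraries on a log scale, with 1 point for each of 1093 tested host genes. FNDC3B, with 300 reads, lies at 0.89, above the host genes with a like number of reads.

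The genes nearest in number of junctions had log2 fold changes of 0.18 (MPP6), 0.02 (ASAP1) and 0.19 (PHC3), with adjusted p of 0.994, 0.9996 and 0.994 in the same edgeR fit. The levels of DCUN1D4, CPSF6 and CRIM1 followed that of FNDC3B most closely among genes with 0.5 to 2 times its reads. Pearson r was 0.830, 0.818 and 0.811 over the 6 libraries, which share their read totals. The log2 fold changes of these genes were 0.23, 0.46 and 0.29, with adjusted p of 0.982, 0.847 and 0.938 in the same edgeR fit. These values are a description. PHC3 also lies near FNDC3B on the long arm of chromosome 3. Of 31 genes listed for that neighbourhood, 10 had a junction and 3 could be tested, and 0 passed p 0.05, which 5.76% of all tested host genes did. Their log2 fold changes were 0.19 for PHC3, a Polycomb protein gene, -0.34 for FXR1, an RNA-binding protein gene, and -0.97 for ECT2, a gene needed for cytokinesis. The median of the 3 was -0.34 against 0.0013 over all host genes.

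Of 9 other genes of the FNDC family only FNDC3A, the closest relative of FNDC3B, had a listed junction, with 2, 0 and 0 reads in the parent line and 1, 0 and 1 in the resistant line. It was too low to test. Of 24 genes known for roles in splicing or circle formation, 8 had a junction and 1 was tested, and 0 passed p 0.05, beside the same 5.76% of all tested host genes. The tested gene was QKI, an RNA-binding protein that promotes circle formation, with 4, 5 and 2 reads in the parent line and 5, 6 and 11 in the resistant line. Its fitted log2 fold change was 0.99 (SE 0.60), with an edgeR p of 0.0980 and an adjusted p of 0.938. These reads are circles of QKI and say nothing of the level of its protein.

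5 of the 18 junctions had at least 3 reads in at least 3 libraries and were tested singly, among 969 in all. With the threshold set at a fold of 2 and at p 0.05 before adjustment, 2 of the 5 were called, both higher in PANC-1-GR, where 4.23% of all tested junctions were called in either direction and 2.79% as higher. The fitted fold change was above 1 in all 5, as in 46.4% of all tested junctions. In 3 of the 5 the lines did not overlap, with PANC-1-GR higher, as in 6.71% of all tested junctions. No junction of the table had an adjusted p under 0.05 in edgeR, where 49 had an unadjusted p of at most 0.05, and none did in DESeq2 or limma-voom, where 14 and 47 had.

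**Figure D3:**
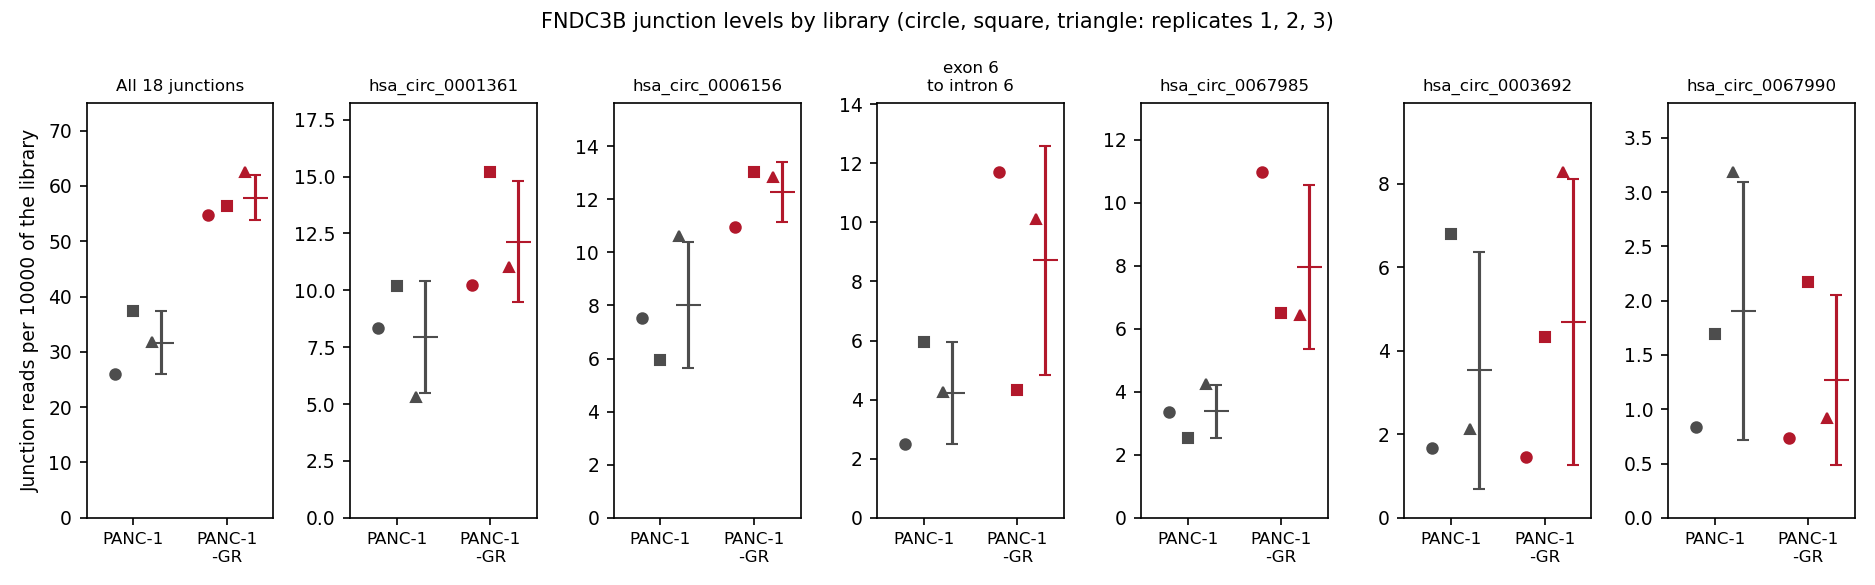
Level of FNDC3B junctions in reads per 10000 junction reads of the library, for all 18 junctions summed and for each junction with at least 10 reads, with 1 point per library and the mean ± SD of 3 libraries beside them. The summed level is higher in each PANC-1-GR library than in any PANC-1 library, and each panel has its own axis from 0.

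hsa_circ_0067985, which would hold exons 4 to 6, differed most between the lines among the 5. It had 4, 3 and 4 reads in the parent line and 15, 6 and 7 in the resistant line, and its level was 3.34, 2.55 and 4.24 against 10.96, 6.51 and 6.43 per 10000. The lines did not overlap, and PANC-1-GR replicate 1 was the highest. The mean level was 3.38 ± 0.849 in the parent line and 7.96 ± 2.59 in the resistant line (SD, n = 3). The log2 fold change was 1.26 (SE 0.54), with an edgeR p of 0.0187 and an adjusted p of 0.930. The p was 0.0618 with DESeq2, 0.174 without PANC-1-GR replicate 1 and 0.0661 without PANC-1 replicate 2, so the call did not hold there.

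The second called junction joined the start of exon 6 to a point in intron 6, 10542 bp past the end of exon 6, at chr3:171969050-171979873. It has no circBase ID but is credited in the table to an earlier circRNA study, and it spans 10824 bp of genome. It had 3, 7 and 4 reads in the parent line and 16, 4 and 11 in the resistant line, or 2.51, 5.94 and 4.24 against 11.7, 4.34 and 10.1 per 10000. PANC-1-GR replicate 2 lay among the PANC-1 libraries, so the lines overlapped. The log2 fold change was 1.07 (SE 0.50), with an edgeR p of 0.0315 and an adjusted p of 0.930. The p was 0.0958 with DESeq2, 0.140 and 0.0665 without PANC-1 replicates 1 and 3, and 0.198 and 0.0759 without PANC-1-GR replicates 1 and 3, and with limma-voom the fold was under 2.

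hsa_circ_0001361, exons 2 to 3, had 10, 12 and 5 reads in the parent line and 14, 14 and 12 in the resistant line. Its level was 8.36, 10.2 and 5.30 against 10.2, 15.2 and 11.02 per 10000, so that the lines were apart only by the gap between replicate 2 of PANC-1 and replicate 1 of PANC-1-GR, which round to the same value. The log2 fold change was 0.53 (SE 0.41), with an edgeR p of 0.192 and an adjusted p of 0.978. A difference was not detectable at this depth, and the ratio of summed reads over library totals was 1.45, with a 95% Clopper-Pearson interval of 0.871 to 2.46. Such intervals take in only the error of counting, as PCR copies cannot be told from separate molecules here.

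hsa_circ_0006156, exons 5 to 6, had 9, 7 and 10 reads in the parent line and 15, 12 and 14 in the resistant line. Its level was 7.52, 5.94 and 10.6 against 10.96, 13.01 and 12.86 per 10000, and the lines did not overlap, PANC-1 replicate 3 coming close to PANC-1-GR replicate 1. The log2 fold change was 0.61 (SE 0.41), with an edgeR p of 0.137 and an adjusted p of 0.978, and the ratio of summed reads was 1.55 (0.924 to 2.64). The 2 leading circles, one from each cluster, thus gave much the same fold, and neither passed the test.

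hsa_circ_0003692, exons 6 to 11, had 2, 8 and 2 reads in the parent line and 2, 4 and 9 in the resistant line, so 1 library of each line stood out and the lines overlapped. Its log2 fold change was 0.30 (SE 0.62), with an edgeR p of 0.634 and an adjusted p of 0.985, and it turned to -0.45 without PANC-1-GR replicate 3 and to -0.06 without PANC-1 replicate 1. hsa_circ_0067990, exons 6 to 9, had 1, 2 and 3 reads in the parent line and 1, 2 and 1 in the resistant line. It was below the limit for the test and was the only junction with at least 10 reads whose ratio of summed reads was under 1, at 0.654 (0.136 to 2.76).

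The 12 junctions under 10 reads had 9 reads in the parent line and 36 in the resistant line in all, 2, 5 and 2 against 12, 10 and 14 per library. Their ratio of summed reads was 3.93 (1.86 to 9.27), beside 1.63 (1.25 to 2.12) for the 6 junctions with more reads. 5 of the 12 had 0 reads in the parent line and 13 in the resistant line, and none had 0 reads in PANC-1-GR. 3 of those 5 were found in 1 library only, each with 2 reads, which is the least the table lists. A junction enters the table through the library in which it is highest, so a line with more reads of a gene gets more of its rare junctions listed. None of the 12 reached 2 reads in a PANC-1 library, so all 12 were listed only through PANC-1-GR. The listing itself thus favours a ratio above 1 for them, and these values are a description. The number of FNDC3B junctions found, which takes in these 12, was 8, 11 and 8 in the parent line and 13, 12 and 13 in the resistant line.

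By region of the gene, the 6 junctions ending before exon 4 had 32 and 52 reads in the parent and the resistant line, a ratio of 1.60 (1.01 to 2.56). The 12 starting at or after exon 4 had 73 and 143, a ratio of 1.92 (1.44 to 2.59). Exonic junctions had 86 and 152 reads, a ratio of 1.73 (1.32 to 2.29), and those with an intronic edge had 19 and 43, a ratio of 2.22 (1.27 to 4.04). The intervals overlap in each pair, and the differences within pairs were not tested. These intervals pool the reads of a line and leave out the spread between its libraries. By start, the ratio was 1.51 (0.915 to 2.52) at exon 2, 2.70 (1.36 to 5.74) at exon 4, 1.70 (1.03 to 2.87) at exon 5 and 1.64 (1.04 to 2.60) at exon 6. All these sums, by region, by type of edge and by start, take in junctions listed only through the resistant line. Without such junctions, the start of exon 2 keeps hsa_circ_0001361, at 1.45 (0.871 to 2.46). The start of exon 4 keeps hsa_circ_0067985, at 2.50 (1.21 to 5.56), and that of exon 5 keeps hsa_circ_0006156, at 1.55 (0.924 to 2.64). At exon 6 such a junction is hsa_circ_0067991, with 1 read in the parent line and 5 in the resistant line, and the sum without it was not computed.

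The other question was whether the lines divide FNDC3B reads differently among its junctions. hsa_circ_0001361 held 32.3, 27.3 and 16.7% of the gene's reads in the parent line and 18.7, 26.9 and 17.6% in the resistant line. With 30 to 75 reads of the gene in a library these shares are coarse. The gene's reads also take in the 12 junctions listed only through PANC-1-GR. Those held 8.16 ± 2.78% of the reads in the parent line and 18.6 ± 2.36% in the resistant line (SD, n = 3). Their listing thus lowers the shares of the other junctions more in PANC-1-GR than in PANC-1. In PANC-1 replicate 3 the exact 95% interval of the share ran from 5.64 to 34.7%, and in PANC-1-GR replicate 1 from 10.6 to 29.3%. The mean was 25.4 ± 7.96% in the parent line and 21.1 ± 5.09% in the resistant line (SD, n = 3, exact permutation p = 0.6).

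hsa_circ_0006156 held 29.03, 15.9 and 33.3% in the parent line and 20.0, 23.1 and 20.6% in the resistant line, so the PANC-1 libraries lay on both sides of the PANC-1-GR libraries. The mean was 26.1 ± 9.08% against 21.2 ± 1.63% (SD, n = 3, exact permutation p = 0.4). The start of exon 6 held 30.4 ± 8.04% of reads in the parent line and 27.7 ± 7.13% in the resistant line (exact permutation p = 0.7), and the end of exon 6 held 37.1 ± 12.7% and 35.2 ± 4.58% (exact permutation p = 0.9). Adjusted over these 4 shares, each exact p was 0.9. None of the 4 differed beyond the spread between libraries.

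**Figure D4:**
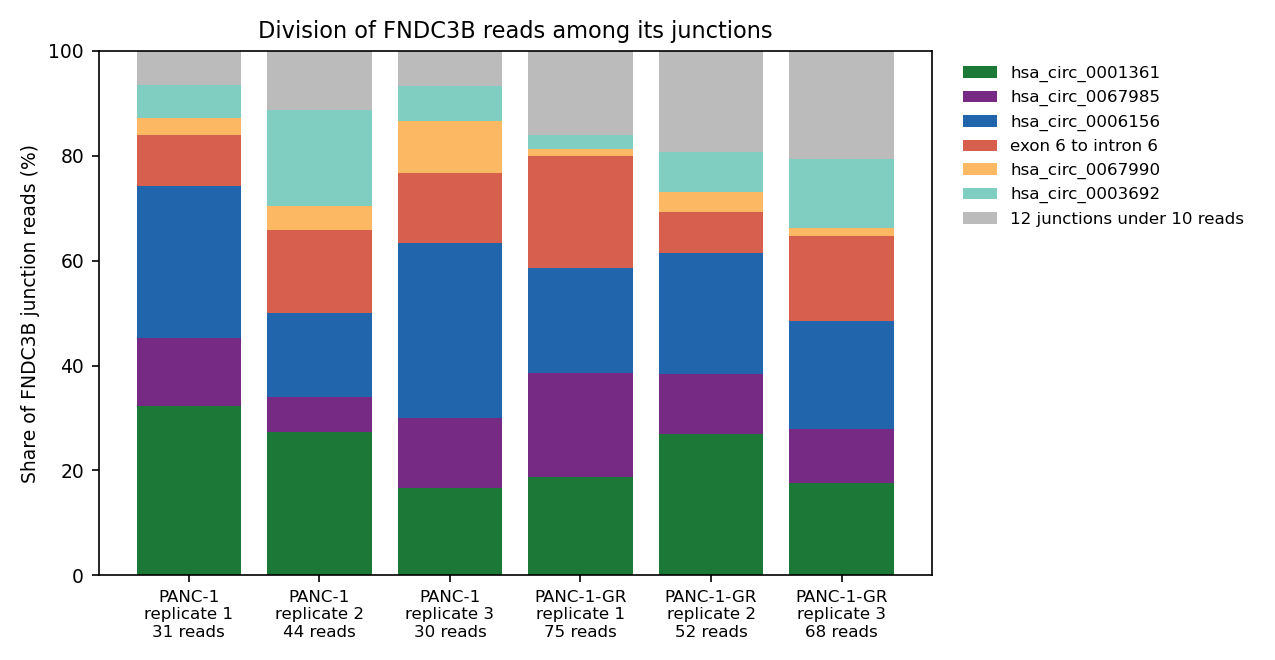
Share of FNDC3B junction reads (%) held by each junction with at least 10 reads, in gene order from the bottom of each bar, and by the other 12 together, for each library with its number of FNDC3B reads. hsa_circ_0001361 and hsa_circ_0006156 hold the largest shares over all libraries. The 12 low junctions, all listed only through PANC-1-GR, take more of each PANC-1-GR bar than of any PANC-1 bar.

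A test of junction use within the gene (edgeR, diffSpliceDGE) over the 5 tested junctions gave a p of 0.727 and an adjusted p of 0.985. Of 172 host genes with at least 2 tested junctions, 4.07% had p at most 0.05 and 0 had an adjusted p under 0.05. Relative to the gene, the log2 difference in use was 0.36 for hsa_circ_0067985, 0.23 for the intron 6 junction, -0.09 for hsa_circ_0006156, -0.14 for hsa_circ_0001361 and -0.31 for hsa_circ_0003692. The smallest edgeR p of the 5 was 0.343, and the adjusted p was 0.999 for each. A shift in use among these 5 junctions was not detectable at this depth, which does not show that their use was the same. The 12 junctions under 10 reads did not enter that test. Together they held 6.45, 11.4 and 6.67% of FNDC3B reads in the parent line and 16.0, 19.2 and 20.6% in the resistant line, or 8.16 ± 2.78% against 18.6 ± 2.36% (SD, n = 3). The lines did not overlap in this share, which was singled out after its values were seen and depends on the listing of rare junctions described above, so it carries no test.

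As a check on the labelled cell type, KRT19 was the only gene of 11 duct and epithelium markers with a listed junction, with 3 reads, and none of the 7 fibroblast, 4 blood, 3 endothelium, 4 acinar and 4 endocrine markers had one. Since most markers yield no listed circle, this table cannot tell the cell type.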

How the data were processed

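Circular RNA was sequenced in 3 PANC-1 and 3 PANC-1-GR libraries, grouped by their labels. For each junction and library the authors deposited a count of reads across the back-splice, beside log2 CPM values made with edgeR, which were not used. CASAVA 1.8, BWA and hg19 are named in the submitters' processing notes, and for the junction caller no name is given in the sources used here. The deposited table also gives predicted lengths. It lists junctions with at least 2 reads in some library and spans of 150 to 99910 bp, so rarer or longer circles are not measured. The 1 row above its column headers was left out of what was analysed here, and every listed junction was read. The table's columns of fold changes and p-values are the authors' own comparisons and were not used.

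Counts were tested with edgeR 4.0.16 in R 4.3.3 (quasi-likelihood, two-sided, TMM factors of 0.971 to 1.06, prior count 0.125, library size the total of listed junction reads of 9222 to 13689) over features with at least 3 reads in at least 3 libraries, per junction, per host gene and, with diffSpliceDGE, for use within a gene. p-values were adjusted by Benjamini-Hochberg over all features tested. Calls need a fold of 2 and p at most 0.05. The standard error is the log2 fold change divided by the square root of F. Shares were compared by exact permutation tests. DESeq2 1.42.0 and limma-voom 3.58.1 were among the alternatives. The scripts were tested on simulated data. Junctions with at least 10 reads over the 6 libraries were given singly, with a few lower ones named after their values were seen. FNDC3B, its junctions and the gene lists were chosen with earlier results of these data known. Replicate libraries of a line differed by more than counting noise (chi-square p of at most 0.00233), so each was counted singly. Sequences come from GENCODE release 29 transcripts.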

Additional observations from a re-analysis of the deposited data

How the results depend on the processing

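Counts of about 10000 junction reads per library limit the precision: 13 of 18 FNDC3B junctions were too low to test. The number of FNDC3B junctions called, 2, was 0 with DESeq2, 1 with limma-voom, 0 with at least 10 reads in 3 libraries, since none of the called ones then enters, 0 with a prior count of 2, which shrinks the fold below the threshold, and 0 to 2 without 1 library. The paper speaks of paired lines in passing without saying what pairs them, the labels name no pairing, and the replicate numbers were not taken as pairs (correlations of same-numbered deviations of 0.0212, 0.00696 and 0.0102). With the replicate number as a block 1 junction was called, the intron 6 junction having an edgeR p of 0.0530, and the gene sum gave a log2 fold change of 0.90 with an adjusted p of 0.0224.

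The log2 fold change of the gene sum ranged from 0.73 to 1.04 without 1 library, with the adjusted edgeR p between 0.00425 and 0.700. In 11 of 20 alternatives the adjusted p was under 0.05. Of those chosen after seeing the data, it was 0.0601 without the 2 leading junctions, 0.178 over exonic junctions and 0.0173 with FNDC3B reads left out of the totals. Without 1 library, the log2 fold change was 0.32 to 0.75 for hsa_circ_0001361, 0.44 to 0.80 for hsa_circ_0006156, 0.90 to 1.41 for hsa_circ_0067985, 0.77 to 1.43 for the intron 6 junction and -0.45 to 1.21 for hsa_circ_0003692, which reversed at -0.06 and -0.45, and the p of junction use was 0.418 to 0.998.

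Over circBase junctions alone, the PANC-1-GR share was 28.0% for hsa_circ_0001361 and 28.4% for hsa_circ_0006156. Over junctions with at least 5 reads it was 24.5% for hsa_circ_0006156 and 40.6% for the end of exon 6. These changes follow from the smaller denominator. Without 1 library the shares in PANC-1 and PANC-1-GR were 22.0 to 29.8% and 18.2 to 22.8% for hsa_circ_0001361, 22.5 to 31.2% and 20.3 to 21.8% for hsa_circ_0006156, 26.3 to 34.3% and 23.9 to 31.0% for the start of exon 6, and 32.3 to 44.3% and 32.7 to 37.3% for its end.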
